A study of Homo sapiens with 4 samples.

Results

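The Hippo kinase core was taken here as 10 genes: the MST kinases STK3 and STK4, their scaffold SAV1, the LATS kinases LATS1 and LATS2, the MOB1 cofactors MOB1A and MOB1B, and the TAO kinases TAOK1, TAOK2 and TAOK3. They were found by symbol in a table of 14431 genes, where all 10 were listed. RNA-Seq had been performed on HGC27, a human gastric cancer cell line, in 2 control libraries and in 2 libraries of cells in which siRNA (siAARS1) was used to knock down AARS1, the cytosolic alanyl-tRNA synthetase. Cells of both groups were kept in glucose-free DMEM with 25 mM lactate, for 24 h per the labels, while the text of the study gives another duration. No library without lactate was compared, and nothing in the labels says that replicates came from separate cultures, so p-values measure only the spread between these libraries.

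The Hippo pathway is a kinase cascade that restrains growth. TAO kinases switch on the MST kinases by phosphorylation, and MST bound to SAV1 phosphorylates LATS and MOB1. Active LATS, held in shape by MOB1, phosphorylates the coactivators YAP and TAZ, which are then kept in the cytoplasm and degraded. YAP and TAZ that escape this enter the nucleus and switch on genes together with TEAD transcription factors. The activity of the cascade is set by phosphorylation, which RNA levels do not show. The comparison of siAARS1 with control asked how the transcripts of this core, and the balance of its paralogs, differed after AARS1 knockdown under lactate.

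The paralogs are close in coding sequence, and the stretches printed here show why their reads can be told apart and how they differ in base composition. Each stretch is 90 bases of coding sequence from GENCODE v29 (GRCh38), 5′ to 3′, and capitals mark the bases at which the paralogs of a pair differ. The LATS and TAOK stretches were chosen as those with the most identical bases among aligned stretches of that length without a gap. They are therefore more alike than the whole coding sequences of these pairs. The first pair is bases 1 to 90 of MOB1A and of MOB1B, counted from the start codon.
MOB1A: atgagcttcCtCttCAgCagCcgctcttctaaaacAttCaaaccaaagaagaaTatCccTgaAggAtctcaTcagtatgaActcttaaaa
MOB1B: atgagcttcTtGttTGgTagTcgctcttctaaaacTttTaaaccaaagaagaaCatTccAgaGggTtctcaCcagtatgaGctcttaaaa
The next pair is bases 2480 to 2569 of LATS1 and bases 2369 to 2458 of LATS2.
LATS1: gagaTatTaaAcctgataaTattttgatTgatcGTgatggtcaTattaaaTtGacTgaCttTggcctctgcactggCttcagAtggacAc
LATS2: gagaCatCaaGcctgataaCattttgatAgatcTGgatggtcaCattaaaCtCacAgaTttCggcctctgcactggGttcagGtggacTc
The last pair is bases 25 to 114 of TAOK1 and of TAOK2.
TAOK1: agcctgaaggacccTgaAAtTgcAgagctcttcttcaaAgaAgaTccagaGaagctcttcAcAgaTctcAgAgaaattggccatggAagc
TAOK2: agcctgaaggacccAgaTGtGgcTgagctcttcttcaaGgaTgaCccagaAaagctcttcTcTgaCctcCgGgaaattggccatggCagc

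In the MOB1 stretch 15 of 90 bases differed, and 7 of the differing bases were G or C in MOB1A against 6 in MOB1B. In the LATS stretch 16 bases differed, with 4 of them G or C in LATS1 and 11 in LATS2. In the TAOK stretch 15 bases differed, with 1 of them G or C in TAOK1 and 8 in TAOK2. The whole coding sequences showed the same contrast. LATS1 and LATS2 were identical at 66.6% of 3086 aligned bases, and where they differed 25.0% of the LATS1 bases and 76.0% of the LATS2 bases were G or C. TAOK1 and TAOK2 were identical at 68.5% of 2965 bases, and the differing bases were G or C in 26.2% for TAOK1 and 78.3% for TAOK2. MOB1A and MOB1B, with coding sequences of 648 bases each, were identical at 79.6%, and their differing bases were alike in composition (43.2% and 45.5% G or C). STK3 and STK4 were identical at 76.5% of 1453 bases. The longest run of identical bases was 17 in the MOB1 pair and 20 in the LATS pair, and no stretch of 50 bases was shared by the transcripts of any pair.

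Levels are given as CPM, the reads of a gene scaled to the size of its library, as the authors deposited them. Depth ranged from 30653210 to 33522573 reads per library over the genes listed, and 1 read was worth 0.0293 to 0.0324 CPM. AARS1 (listed as AARS) was measured at 428 and 417 CPM in the control libraries and at 292 and 298 CPM in the siAARS1 libraries, 69.8% of the control level (log2 fold change -0.52, adjusted p = 2.52e-11). That fold change lay at percentile 11.9 of the genes tested. The median of the 920 genes of like GC content and transcript length was -0.22. Of the mesenchymal markers, VIM was at 4600 to 5131 CPM in every library, the mean of ZEB1 went from 6.50 CPM in control to 51.2 CPM in siAARS1 cells and that of FN1 from 74.0 to 53.0 CPM, and CDH2 was not listed. The epithelial marker KRT8 went from a mean of 24.95 to 5.85 CPM and CDH1 lay between 0.680 and 2.55 CPM, while the epithelial markers EPCAM, KRT18 and KRT19 and the gastric markers TFF1, TFF2, MUC5AC, GKN1 and CLDN18 were not among the genes listed. PTPRC, PECAM1 and ALB, markers of other cell types, were not listed either, and COL1A1 was at 1541 to 2399 CPM. Their part in the results on the kinase core was not tested.

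Of the 10 members, 8 were higher in siAARS1 cells and 1, LATS2, was lower, and TAOK2 did not pass the test. The test was limma on log2(CPM + 1) over 14199 genes, with an adjusted p below 0.05 as the threshold. Changes were common in this comparison: 70.7% of all genes tested were called, 32.6% higher and 38.0% lower. In 9 of the 10 members the 2 groups did not overlap, against 85.1% of all genes. The median log2 fold change was 0.72 over the 10 members and -0.05 over all genes. With corrections for GC content and length of the transcripts, whose values follow those of the members, 4 or 5 members were higher and 4 lower. In bulk RNA a change within cells and a change in the share of cells that hold a transcript cannot be told apart. Fold changes on this scale understate the change of genes with few reads, and the member with the fewest, MOB1B, still had 255 reads in its lowest library. Scaling each library by its median CPM moved the median of all genes to -0.26 and the share of higher genes among those called from 46.2% to 29.7%. Under that scaling 7 members were called higher and 2 lower, the added one being TAOK2 at -0.27, which is close to the median of all genes there.

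**Figure D1:**
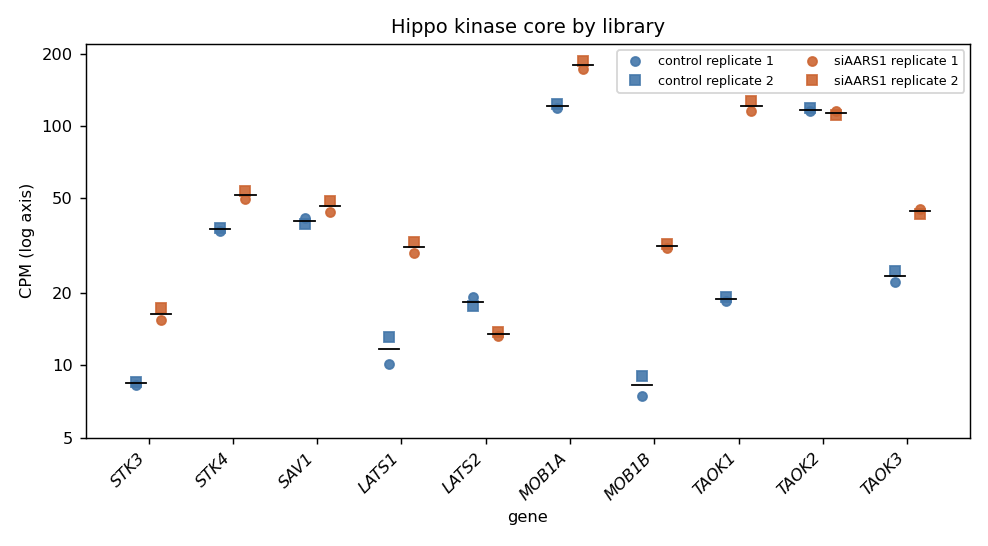
CPM of each of the 10 genes of the kinase core on a log axis, with 1 point per library and a bar at the mean of the 2 libraries of a group. The widest gap between groups is that of TAOK1, from 18.6 and 19.3 to 116 and 127 CPM, LATS2 lies lower in the siAARS1 libraries, and the TAOK2 points overlap.

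Without correction both MST kinases were higher in siAARS1 cells, STK3 by more than STK4. With the corrections for transcript properties described below, the log2 fold change was 0.15 and -0.04 for STK3 and -0.15 and 0.12 for STK4. STK3 (MST2; ENSG00000104375, chromosome 8, 98371228 to 98942827, GRCh38) was at 8.30 and 8.54 CPM in control replicates 1 and 2 and at 15.5 and 17.4 CPM in siAARS1 replicates 1 and 2. The groups were clearly apart, with a mean of 8.42 ± 0.171 against 16.4 ± 1.35 CPM (SD, n = 2), a 1.95-fold difference in CPM. Its log2 fold change was 0.89 (SE 0.0953, adjusted p = 3.86e-08), higher than that of 87.8% of the genes tested. STK4 (MST1; ENSG00000101109, chromosome 20, 44966474 to 45079959) had 36.5 and 37.6 CPM in the control libraries against 49.3 and 53.6 CPM after siAARS1. It was thus 1.39-fold higher, with a log2 fold change of 0.46 (SE 0.0583, adjusted p = 4.43e-07). Values per kilobase divide CPM by the length of a single GENCODE v29 transcript of the gene, the longest protein-coding one of the basic set. Which transcripts the cells expressed was not determined. Per kilobase of that transcript, STK4 stood above STK3 in both groups. The values were 5.85 against 2.71 CPM per kilobase in control and 8.11 against 5.29 in siAARS1 cells.

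SAV1, the WW-domain scaffold that brings MST to LATS, changed least among the members that were called without correction. SAV1 (ENSG00000151748, chromosome 14, 50632058 to 50668331) had 41.4 and 38.9 CPM in the control libraries against 43.7 and 48.7 CPM after siAARS1. The groups did not overlap, but the gap between the nearest libraries was smaller than the spread within the siAARS1 group. The log2 fold change was 0.20 (SE 0.0618, adjusted p = 0.00758). It was no longer called without control replicate 2 (0.15, adjusted p = 0.0759), without siAARS1 replicate 2 (0.12, adjusted p = 0.144) or after quantile normalization (0.05, adjusted p = 0.489). With each library scaled by its median CPM it was -0.03 (adjusted p = 0.691). With the corrections for transcript properties it was -0.17 and -0.24.

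The LATS kinases, which phosphorylate YAP and TAZ, moved in opposite directions under every scaling tried, although LATS1 was at 0.11 and -0.36 with the corrections for transcript properties. LATS1 (ENSG00000131023, chromosome 6, 149658153 to 149718256) had 10.2 and 13.2 CPM in the control libraries against 29.5 and 32.7 CPM after siAARS1. Both siAARS1 libraries were above both controls, by 2.66-fold on the means, with a log2 fold change of 1.35 (SE 0.0956, adjusted p = 4.21e-11). LATS2 (ENSG00000150457, chromosome 13, 20973032 to 21061547), itself known as a gene that YAP and TEAD switch on, had 19.2 and 17.7 CPM in the control libraries against 13.3 and 13.8 CPM after siAARS1. It fell in both libraries to 73.4% of the control level, with a log2 fold change of -0.42 (SE 0.0846, adjusted p = 0.000165). It was the only member below the median of all genes by more than its SE, and 16.8% of the genes tested had a lower fold change. Per kilobase of the transcript chosen, and without correction, LATS2 was above LATS1 in control (3.35 against 1.55 CPM per kilobase). LATS1 was above LATS2 in siAARS1 cells (4.14 against 2.46). The log2 difference between groups in the LATS1 to LATS2 ratio was 1.87, and 0.37 and 0.055 with the corrections.

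The MOB1 proteins bind LATS and the related NDR kinases and help to activate them. MOB1A (ENSG00000114978, chromosome 2, 74152528 to 74178898) had 119 and 124 CPM in the control libraries against 172 and 187 CPM after siAARS1. It had the highest mean CPM per kilobase of the 10 members in both groups, at 24.8 in control and 36.8 in siAARS1 cells. Without correction it rose by 1.48-fold (log2 fold change 0.56, SE 0.0446, adjusted p = 2.83e-10). With the corrections for transcript properties its log2 fold change was -0.65 and -0.16. MOB1B (ENSG00000173542, chromosome 4, 70902326 to 71022449) had 7.48 and 9.05 CPM in the control libraries against 30.8 and 32.1 CPM after siAARS1. MOB1B had the lowest level per kilobase of the members in control, 1.19 CPM per kilobase, and reached 4.52 in siAARS1 cells. Without correction MOB1B was 3.81-fold higher, with a log2 fold change of 1.81 (SE 0.0901, adjusted p = 8.69e-14), above that of 96.4% of the genes tested. With the corrections its log2 fold change was 0.24 and 0.84.

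The TAO kinases, which act upstream of MST and also on stress-activated MAP kinases and microtubules, differed most from each other without correction. TAOK1 (ENSG00000160551, chromosome 17, 29390464 to 29551904) had 18.6 and 19.3 CPM in the control libraries against 116 and 127 CPM after siAARS1. Replicates lay close together within each group, and the 6.40-fold rise was the largest of the 10 members (log2 fold change 2.62, SE 0.0573, adjusted p = 1.02e-19), above that of 99.4% of the genes tested. TAOK2 (ENSG00000149930, chromosome 16, 29973641 to 29992261) had 115 and 119 CPM in the control libraries against 116 and 111 CPM after siAARS1. Its groups overlapped, and without correction the log2 fold change of -0.05 (SE 0.0436, adjusted p = 0.336) was not told apart from 0. TAOK3 (ENSG00000135090, chromosome 12, 118149801 to 118372945) had 22.3 and 24.9 CPM in the control libraries against 45.1 and 42.7 CPM after siAARS1. Both siAARS1 libraries were higher, by 1.86-fold on the means (log2 fold change 0.87, SE 0.0670, adjusted p = 1.72e-10). With the corrections for transcript properties the log2 fold change was 1.19 and 1.23 for TAOK1 and 0.60 and 0.28 for TAOK3. TAOK2 was then at 0.31 and 0.28 and was called higher with both. Per kilobase of transcript, TAOK2 led in both groups (22.6 and 21.9 CPM per kilobase), whereas TAOK1 went from 1.52 to 9.76 and TAOK3 from 5.39 to 10.0.

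The balance of paralogs was compared as the ratio of their CPM within each library, over 6 pairs. The ratios here and in the next paragraph are without correction, and corrected differences are given further below. In every pair the ratios of the 2 groups did not overlap, but in 85.1% of all single genes tested the groups did not overlap either. No share was computed over other pairs of genes, and the TAOK pairs share genes and are not independent. The two-sided exact permutation test gave p = 0.333 for each of the 6 pairs, before and after adjustment. That is the smallest value that 2 libraries against 2 allow. The ratio of TAOK1 to TAOK2 was 0.162 in both control libraries and 0.998 and 1.15 in the siAARS1 libraries, a 6.61-fold shift. The ratio of LATS1 to LATS2 was 0.529 and 0.746 in control and 2.22 and 2.37 in siAARS1 libraries, a 3.65-fold shift that was larger than the difference between the control replicates. The pair of MOB1 cofactors shifted toward MOB1B, as the ratio of MOB1A to MOB1B was 15.9 and 13.7 in control and 5.59 and 5.83 in siAARS1 libraries. MOB1A nevertheless remained the more abundant paralog per kilobase, by 21.0-fold in control and 8.14-fold in siAARS1 cells.

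The smallest shift was that of the MST kinases. The ratio of STK3 to STK4 was 0.227 in both control libraries and 0.314 and 0.325 in the siAARS1 libraries, a 1.41-fold shift toward STK3. The TAOK1 to TAOK3 ratio was 0.831 and 0.774 in control and 2.56 and 2.97 in siAARS1 libraries. Per kilobase TAOK1 and TAOK3 were then near each other, with a ratio of 0.283 in control and 0.974 in siAARS1 cells. The TAOK2 to TAOK3 ratio was 5.14 and 4.79 in control and 2.57 and 2.59 in siAARS1 libraries, so TAOK3 gained on TAOK2 by 1.93-fold without correction. With the correction on coding and 3′ parts, the STK3 to STK4 shift turned in direction and that of TAOK2 to TAOK3 was close to 0.

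**Figure D2:**
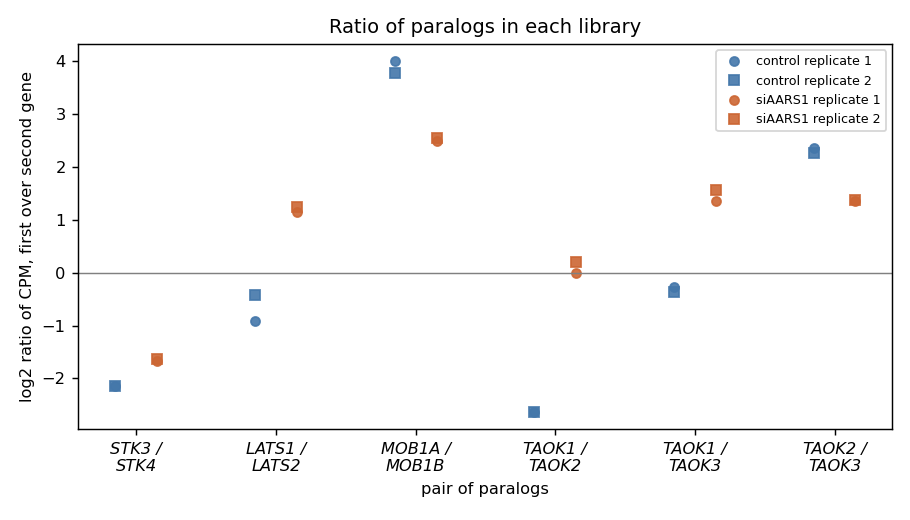
Log2 ratio of the CPM of paralogs in each library (first gene over second gene), with 1 point per library and a line at equal CPM. LATS1 over LATS2 crosses the line from -0.92 and -0.42 in control to 1.15 and 1.24 in siAARS1 libraries, and TAOK1 over TAOK2 goes from -2.63 in both controls to -0.0024 and 0.195.

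The members that rose had transcripts low in G and C, and the fold changes of all genes followed this property. Across 13819 genes with GENCODE v29 transcripts, log2 fold change had a rank correlation of -0.657 with GC content and 0.313 with transcript length, as a description across genes of the same libraries. In the lowest of 5 equal classes of genes by GC content (27.8% to 41.3%) the median log2 fold change was 0.77, and in the highest class (58.9% to 75.2%) it was -0.30. STK3, LATS1, MOB1A, MOB1B and TAOK1 belonged to that lowest class, STK4, SAV1 and TAOK3 to the next, LATS2 (51.8% GC) to the middle one and TAOK2 (62.5% GC) to the highest. The sequences printed above show this contrast base by base for the LATS and TAOK pairs. GC content at the last base of codons was 30.5% in LATS1 and 75.6% in LATS2, and 41.8% in TAOK1 and 72.8% in TAOK2.

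**Figure D3:**
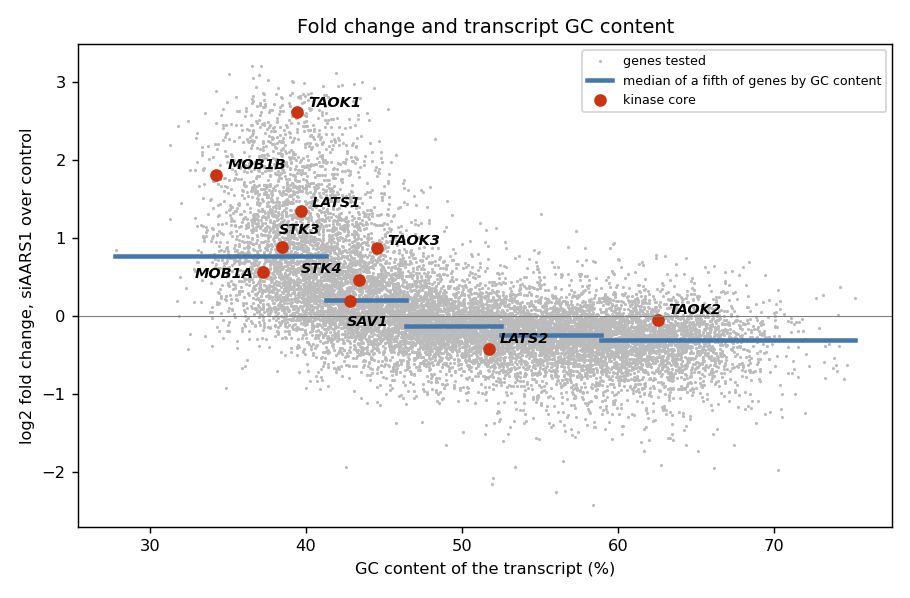
Log2 fold change (siAARS1 over control) against GC content of the transcript in percent, for the 13819 genes tested that have a transcript (small points), with the median of each of 5 equal classes by GC content (bars) and the 10 genes of the kinase core (large points). The medians fall from 0.77 to -0.30 with rising GC content. Of the members, TAOK1 at 2.62, MOB1B at 1.81, TAOK3 at 0.87 and LATS1 at 1.35 lie furthest above the median of their own class.

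Set beside genes of like GC content and length, the members parted. The 5 classes by GC content were each divided into 3 equal groups by transcript length. TAOK1, MOB1B and LATS1 shared such a group, 922 long transcripts of the lowest GC content with a median log2 fold change of 1.19, so that LATS1 at 1.35 was close to it while MOB1B at 1.81 and TAOK1 at 2.62 were above it. STK4 at 0.46 was near the median of its group, 0.45, and SAV1 at 0.20 was near its own, 0.26. STK3 (0.89 against 0.43) and TAOK3 (0.87 against 0.26) were above, and MOB1A (0.56 against 0.82) was below. LATS2 at -0.42 was below the -0.07 of its group, and TAOK2 at -0.05 was above the -0.29 of its group.

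When the smooth trend over transcript GC content and length was taken out of each library, 8 members were called, 4 higher and 4 lower, against 31.8% of genes called higher and 34.0% called lower. The members called higher were TAOK1 (1.19, adjusted p = 2.83e-12), TAOK3 (0.60, adjusted p = 3.07e-07), TAOK2 (0.31, adjusted p = 5.06e-07) and MOB1B (0.24, adjusted p = 0.0142). Those called lower were MOB1A (-0.65, adjusted p = 3.90e-11), LATS2 (-0.27, adjusted p = 0.00686), SAV1 (-0.17, adjusted p = 0.0118) and STK4 (-0.15, adjusted p = 0.0102). STK3 was at 0.15 (adjusted p = 0.140) and LATS1 at 0.11 (adjusted p = 0.289). The median over the members went to 0.13. A true change that follows GC content or length is removed by this correction as well.

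A correction on the coding sequence and the 3′ part of the transcript, over 12192 genes, called 5 members higher and 4 lower, with 32.9% of genes called higher and 32.6% called lower. TAOK1 (1.23, adjusted p = 4.25e-14), MOB1B (0.84, adjusted p = 2.52e-08), TAOK2 (0.28, adjusted p = 4.62e-07), TAOK3 (0.28, adjusted p = 0.000412) and STK4 (0.12, adjusted p = 0.0329) were higher. LATS2 (-0.42, adjusted p = 0.000136), LATS1 (-0.36, adjusted p = 0.000674), SAV1 (-0.24, adjusted p = 0.000565) and MOB1A (-0.16, adjusted p = 0.000173) were lower. TAOK1, MOB1B and TAOK3 were therefore called higher, and LATS2 lower, with both corrections and without correction. For STK4, SAV1, LATS1 and MOB1A the direction depended on the correction, and STK3 was called only without it.

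**Figure D4:**
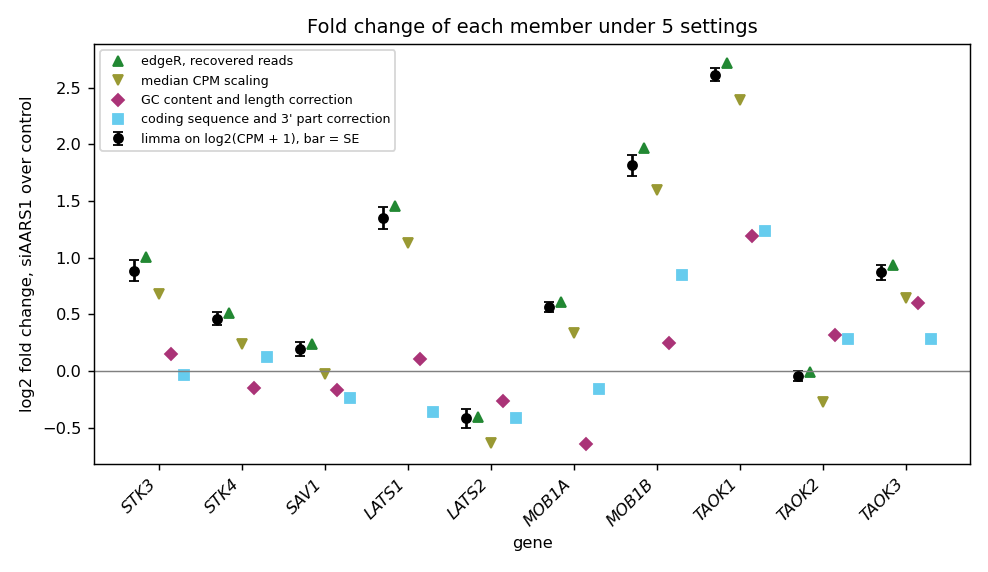
Log2 fold change (siAARS1 over control) of each gene of the kinase core under 5 settings, with SE bars for limma on log2(CPM + 1). TAOK1, MOB1B and TAOK3 stay above 0 and LATS2 below 0 in all 5, and MOB1A goes from 0.56 to -0.65 with the correction on transcript GC content and length.

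With the corrections, which were applied to the ratios too, the MOB1 shift and the shifts of TAOK1 against both other TAO kinases kept their direction at a smaller size, and the others did not all hold. On the log2 scale the difference between groups in the TAOK1 to TAOK2 ratio was 2.73 as deposited, 0.88 with the correction on the transcript and 0.95 with that on coding and 3′ parts. For TAOK1 to TAOK3 it was 1.78, 0.59 and 0.95, in the same order. For MOB1A to MOB1B, whose transcripts are alike in GC content (37.3% and 34.3%), it was -1.37, -0.89 and -1.0025. Their transcripts differ in length, 4885 bases in MOB1A and 6963 in MOB1B. Genes of like GC content and length had a median log2 fold change of 0.82 for MOB1A and 1.19 for MOB1B. The LATS1 to LATS2 difference shrank from 1.87 to 0.37 and 0.055. It turned in direction for STK3 to STK4, from 0.49 to 0.30 and -0.16, and was close to 0 with the second correction for TAOK2 to TAOK3, from -0.94 to -0.28 and 0.0047.

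Some members share bases with other genes, and the use of strand in counting was not given in the sources used here. SAV1 shares 840 exon bases with ATL1 on the opposite strand, and 13.9% of its stretches of 50 bases also occur in ATL1. ATL1, a membrane-shaping GTPase, went from 12.2 to 18.9 CPM (log2 fold change 0.60, adjusted p = 3.64e-06), so part of the small SAV1 difference cannot be told apart from reads of ATL1. MOB1B shares 199 exon bases on the same strand with DCK, deoxycytidine kinase, which went from 38.12 to 45.02 CPM (log2 fold change 0.24, adjusted p = 0.00347). The LATS1 exons overlap 408 bases of an antisense transcript that was not listed, and 4.26% of the LATS1 stretches of 50 bases occur in another gene. TAOK1, whose row carries the name of the microRNA gene MIR4523 in a second name column and was matched here by its first one, overlaps that gene by 69 bases. The TAOK1 exons also overlap 173 bases of an antisense transcript that was not listed. Of the TAOK1 stretches of 50 bases, 2.975% occur in another gene. LATS2 and TAOK2 share no stretch of 50 bases with any other gene.

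The 250 bases before the start site were searched for the TEAD core motif GGAATG on both strands (CATTCC on the other), in RefSeq promoters on GRCh38.p14. There were 13 windows for 9 members. Chromosome 8, which holds STK3, was left out of the member windows, so STK3 was not searched. The motif was in 1 of them, that of an alternative TAOK3 start (chromosome 12, 118190536 to 118190785), 234 bases before the start, and it was in 11.9% of all 35116 windows of that length. The absence of these letters from the window of LATS2 says nothing about TEAD binding elsewhere.

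For the 3 members with the largest changes, the genes closest in pattern were those with the smallest distance to them over the 4 libraries in centred log2(CPM + 1), among 11614 genes. For TAOK1 these included KIAA1109 (distance 0.0296) and NAA15 (0.0341). For MOB1B they were IREB2 (0.0497), NCKAP1 (0.0581) and CCNT2 (0.0608), and for LATS1 they were VPS54 (0.0509), PTPN4 (0.0610) and LCORL (0.0613). These 8 genes had a transcript GC content between 35.3% and 41.3%, as the 3 members did or nearly so (34.3% to 39.7%). Genes close in pattern have a like fold change, and fold change followed GC content across all genes. The likeness in GC content is thus partly set by how the genes were chosen.

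The genes around the core moved in both directions. Of 66 other pathway genes tested, in 7 lists, 56 were called, 28 higher and 28 lower, with a median log2 fold change of -0.10. Beside these and the list counts below stand the shares over all genes tested: 70.7% called, 32.6% higher and 38.0% lower. With the correction on the transcript 31.8% of genes were called higher and 34.0% lower. With that on coding and 3′ parts the shares were 32.9% and 32.6%. FRMD1, MAP4K1 and RASSF6 were not listed. For each gene named, the log2 fold change is followed by its values with the correction on the transcript and with that on coding and 3′ parts. The list with the largest median was the STRIPAK phosphatase complex, which removes the activating phosphate from MST: 9 of 14 genes were higher and 3 lower, with a median of 0.71. With the correction on the transcript 2 were higher and 5 lower (median -0.01), and with that on coding and 3′ parts 8 were higher and 3 lower (median 0.11). Its scaffold STRN rose from 17.8 to 56.1 CPM (1.61, then 0.12 and 0.58), CTTNBP2NL from 12.7 to 31.9 CPM (1.26, then 0.49 and 0.92) and SLMAP, the subunit that docks on MST, from 16.2 to 36.6 CPM (1.13, then -0.12 and 0.18).

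Among scaffolds and junction regulators, 6 of 16 were higher and 7 lower. The giant cadherins FAT4 (23.3 to 114 CPM, 2.24, then 1.29 and 0.35) and FAT1 (98.6 to 332 CPM, 1.74, then 1.06 and 0.24) rose, whereas DCHS1, the cadherin that binds FAT4, fell from 34.7 to 10.9 CPM (-1.59, then -1.30 and -1.37). The MAP4K kinases, which can phosphorylate LATS in place of MST, had 4 of 6 genes higher and 2 lower. With the corrections 1 was higher and 1 lower, and then none higher and 4 lower. MAP4K5 went from 20.4 to 55.6 CPM (1.40, then 0.53 and -0.09), MAP4K3 from 40.1 to 76.9 CPM (0.92, then 0.02 and -0.73) and MAP4K2 from 45.9 to 25.2 CPM (-0.84, then -0.62 and -0.54).

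Kinases and cofactors related to the core moved in both directions, with 3 of 9 higher and 4 lower. STK38L, an NDR kinase, went from 15.6 to 34.4 CPM (1.09, then -0.23 and -0.16), STK26 (listed as MST4) from 52.8 to 101 CPM (0.93, then 0.05 and 0.05) and MOB3C from 13.08 to 5.998 CPM (-1.01, then -0.79 and -0.70). Of the RASSF and LIM-domain regulators 6 of 8 were called lower and the remaining ones were not called. With the correction on the transcript 6 of 7 were lower and 1 higher, and with that on coding and 3′ parts 3 were lower and 2 higher. RASSF4 (14.9 to 7.86 CPM, -0.85, then -0.68 and -0.56), WTIP (12.8 to 8.04 CPM, -0.60, then -0.34 and -0.24) and RASSF2 (19.6 to 13.0 CPM, -0.56, then -0.51 and -0.32) fell the most without correction. RASSF proteins bind MST through a shared helical domain, and WTIP is a LIM protein that can hold LATS at junctions.

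Downstream of LATS, 3 of 7 coactivators and TEAD factors were higher and 3 lower. TEAD1 rose from 43.9 to 122 CPM (1.45, then 0.31 and 1.22). TEAD3 (34.1 to 24.5 CPM, -0.46, then -0.15 and -0.14) and TEAD2 (68.0 to 57.2 CPM, -0.25, then 0.06 and 0.10) fell without correction. Of the 6 genes that degrade phosphorylated YAP and TAZ, 3 were higher and 3 lower. CUL1, a ubiquitin ligase scaffold, went from 92.1 to 152 CPM (0.72, then 0.52 and 0.08), BTRC, which recognizes phosphorylated YAP and TAZ, from 41.6 to 52.3 CPM (0.32, then 0.04 and 0.05), and the kinase CSNK1E from 145 to 115 CPM (-0.33, then -0.03 and 0.01).

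**Figure D5:**
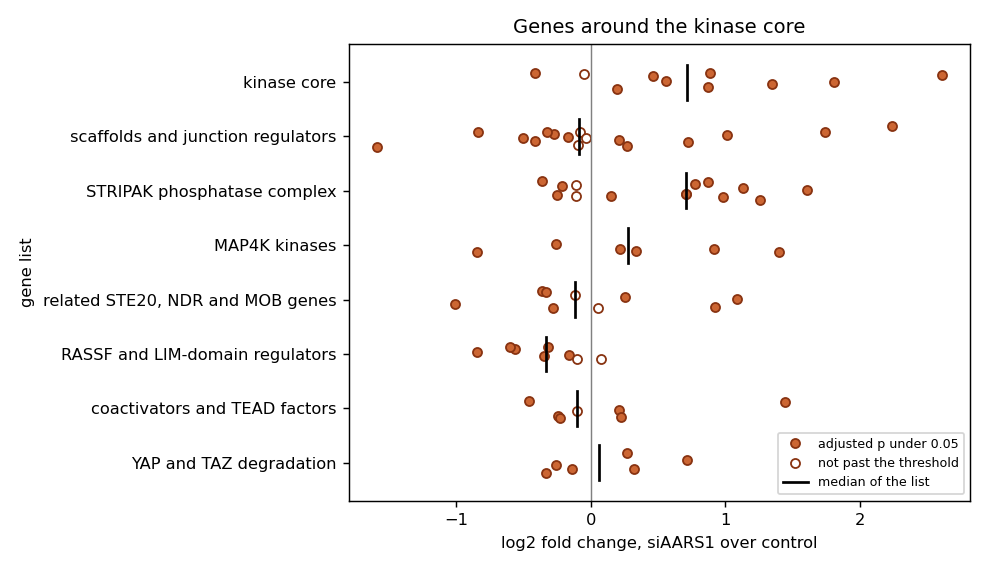
Log2 fold change (siAARS1 over control) of every tested gene of the kinase core and of the 7 other pathway lists, with filled points for an adjusted p below 0.05 and a bar at the median of each list. The medians are 0.72 for the kinase core, 0.71 for STRIPAK and between -0.33 and 0.28 for the other 6 lists.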

How the data were processed

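RNA-Seq of 4 HGC27 libraries was analysed, with groups taken from the sample titles. The authors deposited 1 table of CPM values for 14431 genes, each above 1 CPM in some library. Per the labels the processing notes name RSEM 1.3.3 and hg38, and no other step or use of strand was given in the sources used here. In 100% of values CPM were whole multiples of 1 read (within 0.1 read), so whole reads were recovered. The library sizes behind the CPM were 0.749% to 1.89% above the sums of these reads.

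A linear model with group as its only term was fitted in limma 3.58.1 under R 4.3.3 (moderated variances with a trend) to log2(CPM + 1) of the 14199 genes whose mean reached 1 CPM in a group, with Benjamini-Hochberg adjustment over them. SD is over n = 2 libraries. Counts were also tested with edgeR 4.0.16 and DESeq2 1.42.0. Trends over GC content and length (GENCODE v29, 97.2% of genes; coding and 3′ parts, 85.7%) were removed with mgcv 1.9.3. Alternatives were another pseudocount, filter or scaling, a replicate block and the omission of each library in turn. Scaling by the median CPM was added after seeing the data. Scripts were tested on simulated data. Replicates differed beyond sampling noise (chi-square per gene 3.63 and 3.62) and were kept as separate samples.

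The members and gene lists were chosen with earlier results of these data known. Genes named were all members, AARS1, from each other list the 3 called genes with the largest change (at least 5 CPM in the higher group), and the 3 genes closest to each of the 3 members that changed most. ATL1 and DCK, which overlap members, were added later. A gene named by this rule for TAOK1 is not reported here.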

Additional observations from a re-analysis of the deposited data

How the results depend on the processing

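TAOK1, MOB1B and TAOK3 (higher) and LATS2 (lower) kept direction and call under every alternative run. No member changed its call with edgeR, DESeq2, a pseudocount of 0.1, no filter, median scaling by ratios or the replicate block, and none of the called members changed direction there (TAOK2, not called, was at 0.0039 with DESeq2). The correction on transcript GC content and length gave 4 members higher and 4 lower, with or without the replicate block, with STK3 at 0.15, STK4 at -0.15, SAV1 at -0.17, LATS1 at 0.11, MOB1A at -0.65 and TAOK2 at 0.31. It put SLMAP at -0.12, STK38L at -0.23 and TEAD2 at 0.065. The correction on coding and 3′ parts gave 5 members higher and 4 lower, with STK3 at -0.038, SAV1 at -0.24, LATS1 at -0.36, MOB1A at -0.16 and TAOK2 at 0.28, and put MAP4K5 at -0.086, MAP4K3 at -0.73, STK38L at -0.16, TEAD2 at 0.10 and CSNK1E at 0.0085. Median CPM scaling called 2 members lower, LATS2 at -0.63 and TAOK2 at -0.27. SAV1 was at -0.027 under that scaling and at 0.049 with quantile normalization, and was called in neither. The cause of these changes was not tested beyond what each correction removes by construction.

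Leaving out each library gave SAV1 log2 fold changes of 0.12 to 0.27, with the call lost without control replicate 2 or siAARS1 replicate 2, and 8905 to 9326 genes called against 10032. The replicate block called 10389 genes. Replicate numbers were not shown to pair the libraries (correlation of deviations 0.118 over 2 pairs); in this balanced design the block cannot move a fold change or a paralog difference. Log2 differences between groups in paralog ratios were 0.30, 0.37, -0.89, 0.88, 0.59 and -0.28 with the correction on transcript GC content and length, for STK3/STK4, LATS1/LATS2, MOB1A/MOB1B, TAOK1/TAOK2, TAOK1/TAOK3 and TAOK2/TAOK3, and 0.43 (STK3/STK4) and -1.25 (MOB1A/MOB1B) with a pseudocount of 1. The correction on coding and 3′ parts, added for the ratios after seeing the data, gave -0.16, 0.055, -1.0025, 0.95, 0.95 and 0.0047 in the same order of pairs. The exact permutation test of 2 libraries against 2 could not reach the threshold. A count of 3 reads, the upper limit for a count of 0, equals 0.0880 to 0.0971 CPM, far below every member, and this covers counting error only.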
